A study of Mus musculus with 6 samples.

Results

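The genes described here are 9 genes that mouse neutrophils express late in their maturation or use to sense cytokines, read by 10 probe sets (groups of short probes against a transcript) out of 45101 on the array. The probe sets were selected by number from a fixed list: Asprv1 (1452732_AT), Mmp9 (1416298_AT and 1448291_AT), Slpi (1448377_AT), Csf3r (1418806_AT), Csf2ra (1420703_AT), Csf2rb (1421326_AT), Csf2rb2 (1449360_AT), Il1r2 (1419532_AT) and Chil1 (1451537_AT, older name Chi3l1). The gene names came with that list, since the deposited table gives probe set numbers only. The list was drawn up with earlier results of this same comparison in view, above all the low Asprv1 value in null cells. All differences between null and wild-type cells are therefore given as a description, with no p. All 10 probe sets passed the filter on dim probe sets, and 22519 probe sets passed it in all.

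The study measured RNA of bone marrow neutrophils on 6 Affymetrix arrays, 3 from miR-223 null mice and 3 from wild-type mice. The labels name the genotype only. The allele, strain, sex and age of the mice, and whether each array stands for a different animal, are not stated in the labels, and no treatment of the mice is named. The cells were enriched on magnetic columns through Gr-1, a surface label of neutrophils that monocytes share in part. Markers of neutrophils and of other cell types could not be looked up without gene names for the other probe sets. In bulk RNA, fewer cells of a type and less RNA per cell cannot be told apart.

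Neutrophils mature in the bone marrow under granulocyte colony-stimulating factor (G-CSF), and fill their granules with different proteins as they go. Gelatinase granules, which hold the protease Mmp9, form late. Mature cells carry receptors for G-CSF, for granulocyte-macrophage colony-stimulating factor (GM-CSF) and for interleukin-1, and their survival outside the marrow depends on such cytokines. The microRNA miR-223 is abundant in this lineage and lowers transcripts that pair with its seed. It is shown here because it is what the null mice lack, 5′ to 3′, with the seed (bases 2 to 8) in capitals, from RefSeq on GRCm38.p6 (chrX:96242884-96242905, plus strand). Sites for this seed in the transcripts of the 9 genes were not searched.
mmu-miR-223-3p: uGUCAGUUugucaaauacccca

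Asprv1 encodes an aspartic protease of retroviral type that is best known from the outer layer of the skin. Its probe set read 10.95, 11.41 and 11.58 on wild-type arrays 1 to 3 and 8.96, 9.09 and 9.17 on null arrays 1 to 3, in log2 units. Every null array lay below every wild-type array, and the gap between the groups, 1.79, was wider than the spread within either. The means were 11.3 ± 0.326 and 9.07 ± 0.104 (SD, n = 3 each). The log2 difference, null minus wild type, was −2.24 with a standard error of 0.157, so wild-type cells read 4.74-fold higher. Among all 22519 tested probe sets only 2 had a lower difference. With each array left out in turn, the difference stayed between −2.43 and −2.11. The list was made in view of this low value, so nothing is read from its rank or its range.

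**Figure D1:**
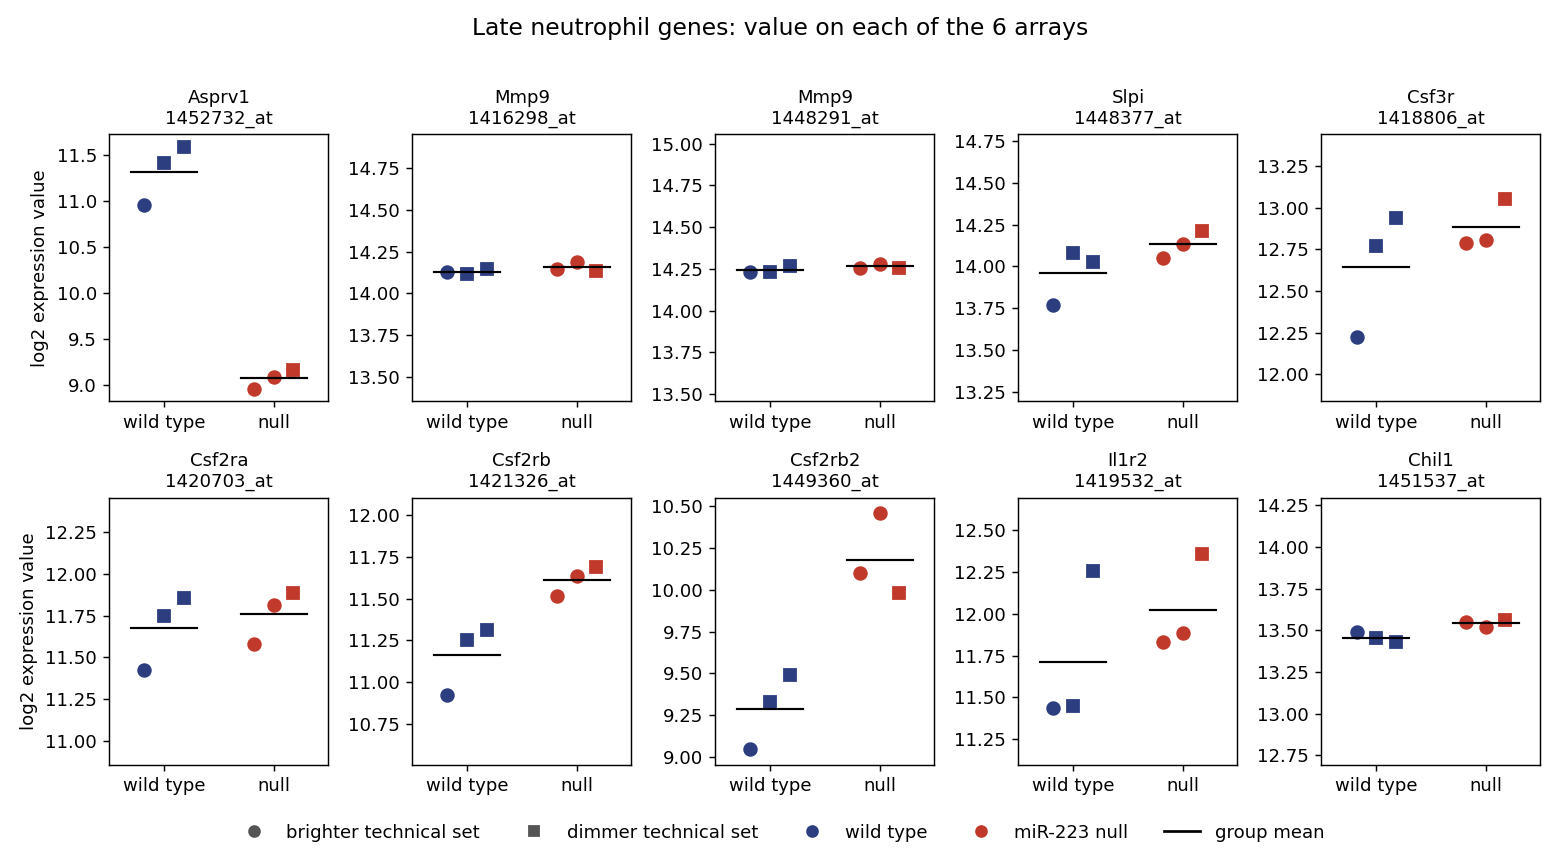
Log2 expression value (y) on each of the 6 arrays for the 10 probe sets, by genotype (x). Points are arrays, lines are group means, and circles and squares mark the brighter and dimmer technical sets; each panel spans the same number of log2 units except Asprv1, which spans more. The 3 null points of Asprv1 lie far below the wild-type points, those of Csf2rb and Csf2rb2 lie above them, and those of Mmp9 are nearly level with them.

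The beta chains of the cytokine receptors lay on the other side. Csf2rb2 encodes the mouse beta chain that serves interleukin-3 alone. It read 9.04, 9.33 and 9.49 on the wild-type arrays and 10.10, 10.46 and 9.98 on the null arrays. All null values were above all wild-type values, with null array 2 the highest. The means were 9.29 ± 0.224 and 10.2 ± 0.249 (SD, n = 3 each), and the log2 difference was 0.89 (standard error 0.156), or 1.86-fold.

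Csf2rb encodes the common beta chain shared by the receptors for GM-CSF, interleukin-3 and interleukin-5. Its probe set read 10.92, 11.25 and 11.31 on the wild-type arrays and 11.51, 11.63 and 11.69 on the null arrays. Again no value overlapped, but the gap of 0.20 between the groups was narrower than that of Csf2rb2, 0.49. The means were 11.2 ± 0.212 and 11.6 ± 0.0902 (SD, n = 3 each), and the log2 difference was 0.45 (standard error 0.111), or 1.37-fold. In the RefSeq annotation Csf2rb and Csf2rb2 are neighbours on chromosome 15, with 0 genes between them. They are close copies of each other, so RNA of either gene may bind probes of the other, and which gene the reading of each probe set comes from was not tested.

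The alpha chain that pairs with Csf2rb to bind GM-CSF, Csf2ra, overlapped between the groups. It read 11.43, 11.75 and 11.86 in wild type and 11.58, 11.81 and 11.89 in null cells, a log2 difference of 0.085 with a standard error of 0.127. Its sign was not stable: without wild-type array 1 the difference was −0.040. Csf3r, the receptor for G-CSF, read 12.22, 12.77 and 12.94 in wild type and 12.79, 12.80 and 13.05 in null cells. Its log2 difference was 0.24 (standard error 0.174). Without wild-type array 1 it was 0.029, while null array 3 against wild-type arrays 2 and 3 gave 0.20. The Csf2rb probe set thus lay higher on every null array, as did 12.8% of all tested probe sets, while that of Csf2ra overlapped. Whether the 2 chains of the GM-CSF receptor differ from each other was not tested.

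Il1r2 is a decoy receptor that binds interleukin-1 without passing on a signal. It had the widest spread within groups of the 10 probe sets, at 11.43, 11.45 and 12.26 in wild type and 11.83, 11.89 and 12.36 in null cells. In both groups replicate 3 stood above the other two. The log2 difference of 0.31 had a standard error of 0.238, and it ranged from 0.15 to 0.59 as single arrays were left out.

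The remaining genes encode stored or secreted proteins and read near the top of the scale, whose highest value on any array was 14.98. Mmp9, or gelatinase B, cleaves collagen and gelatin. Its probe set 1416298_AT read 14.13, 14.12 and 14.15 in wild type and 14.15, 14.19 and 14.13 in null cells, and its probe set 1448291_AT read 14.23, 14.23 and 14.27 against 14.26, 14.28 and 14.26. Both overlapped between the groups, with log2 differences of 0.025 (standard error 0.0414) and 0.022 (standard error 0.0400). Slpi, an inhibitor of neutrophil elastase and cathepsin G, read 13.77, 14.08 and 14.03 in wild type and 14.05, 14.14 and 14.21 in null cells. Its difference was 0.17 with a standard error of 0.0872, and 0.079 without wild-type array 1. Chil1, a chitinase-like protein that binds chitin but does not cut it, read 13.49, 13.45 and 13.43 in wild type and 13.55, 13.52 and 13.56 in null cells. Its groups did not overlap, but the gap was only 0.029 and the difference 0.086 (standard error 0.0451).

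Differences were small in general at these high readings. Of the tested probe sets, 48 had a mean of 14 or more, the Mmp9 and Slpi probe sets among them, and their median absolute difference between the genotypes was 0.030. For the 207 with a mean from 13 to 14, where Chil1 lies, it was 0.092, and for the 5195 from 8 to 10 it was 0.14. The spread within groups narrowed in step, with a median SD of 0.0336, 0.0726 and 0.131. Whether readings near the top of the scale hold down a difference in Mmp9 or Slpi was not tested.

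**Figure D2:**
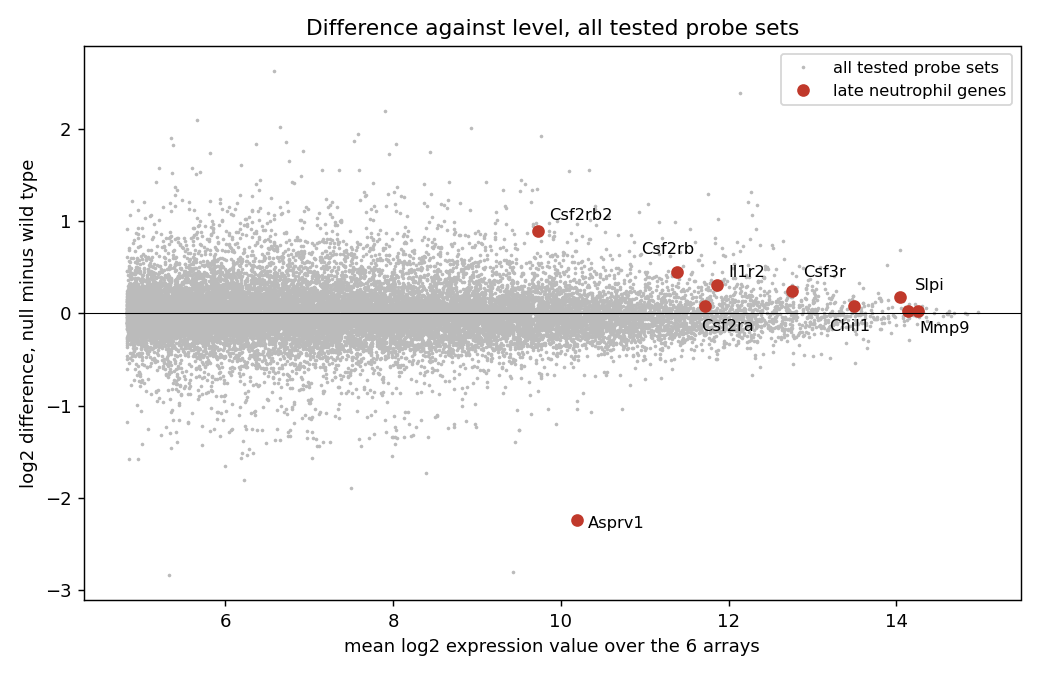
Log2 difference, null minus wild type (y), against the mean log2 expression value over the 6 arrays (x) for all 22519 tested probe sets (grey) and the 10 probe sets of the late neutrophil genes (red). Asprv1 lies at −2.24, Csf2rb2 lies at 0.89, and the cloud narrows towards the bright end where Mmp9 and Slpi lie.

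As a set, the 10 probe sets had no common size of difference. In the fit over all probe sets (limma, Benjamini-Hochberg adjusted p of 0.05), 2 of 10 passed, Csf2rb2 higher and Asprv1 lower in null cells, beside 3.84% of all tested probe sets, 2.78% higher and 1.06% lower. The null values lay all above the wild-type values in 3 of 10 and all below in 1, beside 12.8% and 11.8% of all tested probe sets, 24.6% together. Without null array 1 or 2, or without wild-type array 1 or 2, only Asprv1 passed. These counts come from the comparison in whose light the list was made, so nothing is read from them. The median log2 difference was 0.13 over the 10 probe sets and −0.0080 over all tested ones. Asprv1 aside, the other 9 probe sets all had a positive difference, from 0.022 to 0.89. Those of both Mmp9 probe sets and of Csf2ra were smaller than their standard errors. Without wild-type array 1 the difference of Csf2ra was −0.040, and the median over the 10 probe sets was 0.054. The share of positive differences over all tested probe sets was not counted, so nothing is read from the common sign.

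The 6 arrays also differ in the reading of added control sequences, along a line that crosses the genotypes. No label names a batch. The technical sets rest on this reading alone, and what sets them apart was not tested. Bacterial and phage control sequences added before hybridization read brighter on null arrays 1 and 2 and wild-type array 1 (10.94 to 10.98) than on null array 3 and wild-type arrays 2 and 3 (10.72 to 10.81). Wild-type array 1 was the lowest wild-type array for 8 of the 10 probe sets and wild-type array 3 the highest for 8. Null array 1 was the lowest null array for 6 and null array 3 the highest for 7. With genotype in the fit, 8 of 10 probe sets read lower on the brighter arrays. Among the 8, the differences of Csf2rb2 and of Mmp9 1448291_AT were smaller than their standard errors. Such counts were not made over all tested probe sets, so nothing is read from them.

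The association with the technical set was strongest in relation to its error for Csf3r, which read 0.44 log2 units lower on the brighter arrays (standard error 0.0891, limma adjusted p = 0.0557). For Slpi the brighter arrays were lower by 0.20 (standard error 0.0532, limma adjusted p = 0.0917). For Csf2ra they were lower by 0.28 (standard error 0.0832, limma adjusted p = 0.114) and for Asprv1 by 0.34 (standard error 0.107, limma adjusted p = 0.127). For Csf2rb they were lower by 0.24 (standard error 0.0752, limma adjusted p = 0.130) and for Il1r2 by 0.46 (standard error 0.189, limma adjusted p = 0.224). By limma, 0 of 10 passed an adjusted p of 0.05, beside 1.94% of all tested probe sets, and 6 of 10 had an unadjusted p under 0.05, beside 20.9% of all tested probe sets. The unadjusted count fell to 1 of 10 without wild-type array 1, the only wild-type array in the brighter set. It was 5 or 6 without any other single array. The share of all tested probe sets in those fits was not counted. The values of Csf2rb2, Mmp9 and Chil1 differed between the sets by less than their standard errors. Over the 10 probe sets the median difference, brighter minus dimmer, was −0.22, and over all tested probe sets it was 0.013.

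**Figure D3:**
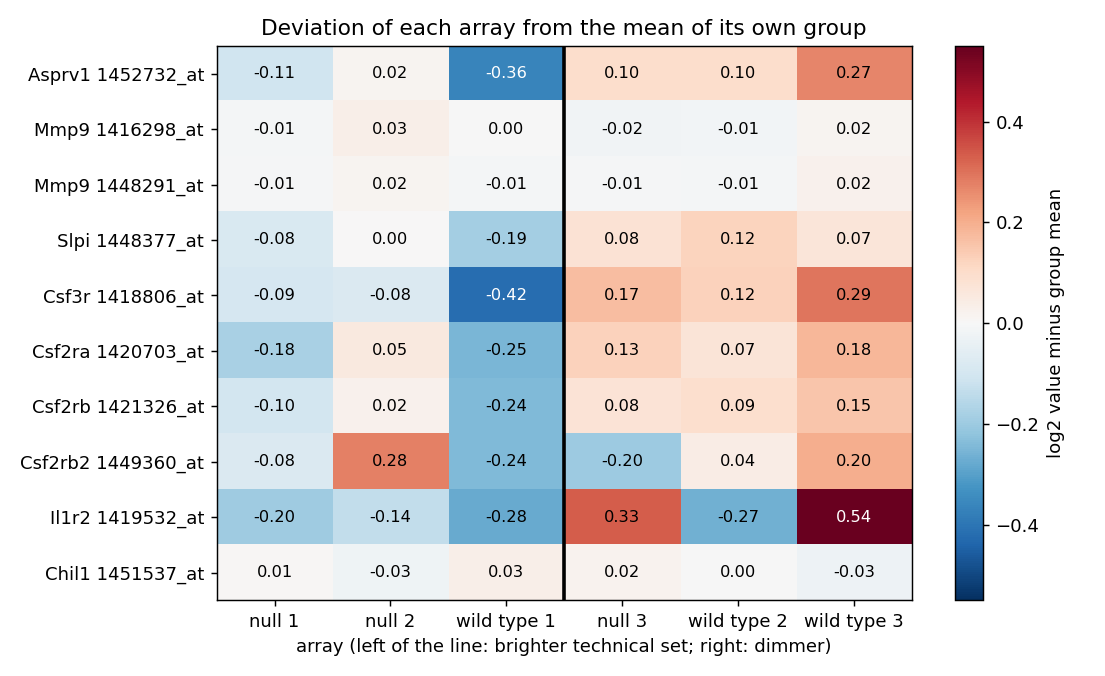
Log2 value of each array minus the mean of its own genotype group (colour and printed value) for the 10 probe sets (rows) and 6 arrays (columns), with the brighter technical set to the left of the black line and the dimmer set to the right. Wild-type array 1 is low and wild-type array 3 high for most receptors and for Asprv1, while Mmp9 and Chil1 hardly vary.

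Because 2 of the 3 brighter arrays are null, the comparison was repeated within each set, as null arrays 1 and 2 against wild-type array 1 and as null array 3 against wild-type arrays 2 and 3. The sign was the same in both sets for all 10 probe sets, beside 66.7% of all tested ones. For both Mmp9 probe sets the differences were smaller than the standard error over all arrays, so their sign says nothing, and nothing is read from the count. The dimmer-set difference of Csf2ra, 0.087, was also smaller than its standard error over all arrays, 0.127. The error of the within-set differences themselves, which rest on fewer arrays, was not estimated. Asprv1 differed by −1.93 in the brighter and −2.33 in the dimmer set. Csf2rb2 differed by 1.23 and 0.57, and Csf2rb by 0.65 and 0.41. For Csf3r the values were 0.57 and 0.20, for Slpi 0.32 and 0.16, for Csf2ra 0.27 and 0.087, and for Il1r2 0.42 and 0.51. Chil1 differed by 0.046 and 0.12, and neither Mmp9 probe set by more than 0.039. The brighter set thus gave the larger positive difference for Csf2rb2, Csf2rb, Csf3r, Slpi and Csf2ra, with a lone wild-type array to compare with.

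**Figure D4:**
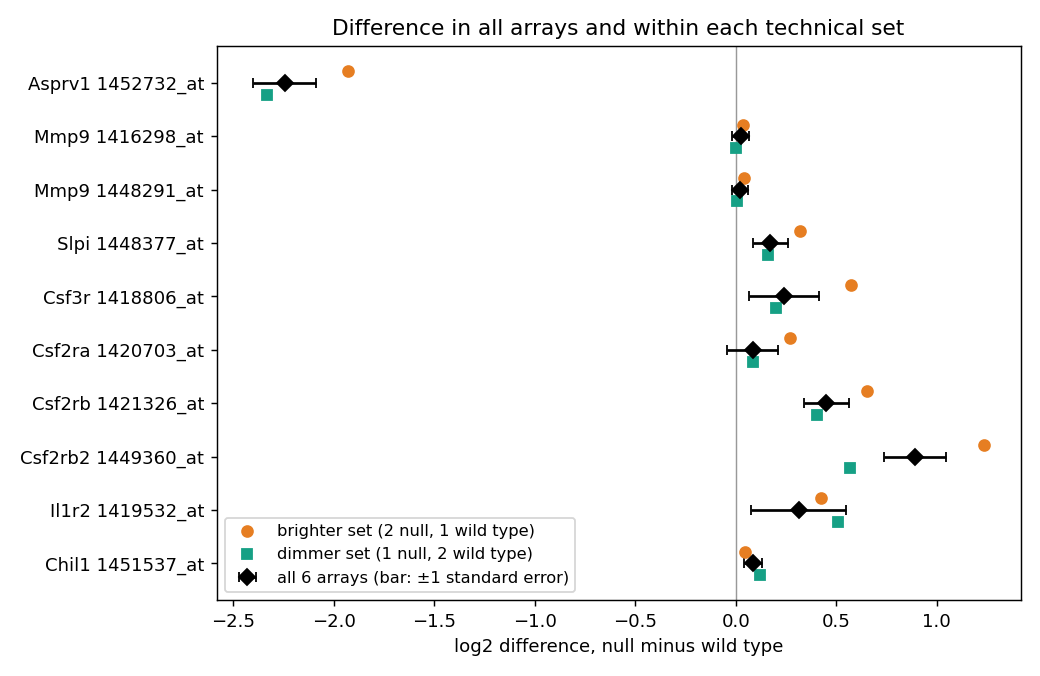
Log2 difference, null minus wild type (x), for the 10 probe sets (y) over all 6 arrays (diamonds, bars of 1 standard error) and within the brighter (circles) and dimmer (squares) technical sets. Asprv1 lies near −2 in both sets and Csf2rb2 and Csf2rb above 0 in both, while Mmp9 stays near 0.

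With the technical set as a term in the fit, the difference was −2.13 for Asprv1 (standard error 0.107), 0.90 for Csf2rb2 (0.163), 0.53 for Csf2rb (0.0752), 0.39 for Csf3r (0.0891) and 0.24 for Slpi (0.0532). The count past the adjusted p of 0.05 was 5 of 10 in that fit, beside 11.0% of all tested probe sets, and nothing is read from it, for the same reason as above. Csf3r and Il1r2 moved most between the fits, Csf3r from 0.24 to 0.39 and Il1r2 from 0.31 to 0.47.

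Likeness of other probe sets to Asprv1 was measured as Pearson's r over the 6 arrays, among the 1029 other tested probe sets with an SD of at least 0.5. The 5 most alike had r between 0.967 and 0.974, and all 5 lay lower on every null array. That direction follows largely from the choice by r, since Asprv1 itself splits by genotype. Of the 1029, 10 had r above 0.95 and 83 had r below −0.95, the latter in the opposite direction to Asprv1. All were read on the same 6 arrays in 2 genotype groups, so r is given as a description and includes the split between genotypes. The first, 1439714_AT, read 5.53, 5.61 and 5.44 in wild type and 4.44, 4.55 and 4.43 in null cells (r = 0.974). Its null values lay below the filter level of 4.83, so it passed the filter only through its wild-type values. Within wild type it did not follow Asprv1, since array 3 was its lowest and the highest for Asprv1. The next, 1448136_AT, read 6.59, 6.96 and 7.06 in wild type and 5.83, 5.58 and 6.01 in null cells (r = 0.972). Their genes are not named here. The Asprv1 difference of −2.24 was larger than theirs, −1.05 and −1.07. The largest difference among the 5 was −1.90.

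Promoter sequences were found in the RefSeq table (GRCm38.p6) for 7 of the 9 genes, and not for Mmp9 and Csf2rb. Each window runs from 250 bases before to 50 bases after the gene's start. Asprv1 and Csf2rb2 are shown because their readings differed most, in opposite directions. Capitals mark GAGGAA, a core that the myeloid factor PU.1 can bind, or its reverse complement TTCCTC. Asprv1 lies at chr6:86627924-86628223 on the plus strand and Csf2rb2 at chr15:78305672-78305971 on the minus strand, both written 5′ to 3′ along the gene.
Asprv1: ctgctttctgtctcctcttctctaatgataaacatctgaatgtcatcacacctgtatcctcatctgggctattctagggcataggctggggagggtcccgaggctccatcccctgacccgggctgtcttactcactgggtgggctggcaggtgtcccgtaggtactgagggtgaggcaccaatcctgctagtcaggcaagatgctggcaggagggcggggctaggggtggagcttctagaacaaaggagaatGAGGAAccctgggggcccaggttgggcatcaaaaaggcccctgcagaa
Csf2rb2: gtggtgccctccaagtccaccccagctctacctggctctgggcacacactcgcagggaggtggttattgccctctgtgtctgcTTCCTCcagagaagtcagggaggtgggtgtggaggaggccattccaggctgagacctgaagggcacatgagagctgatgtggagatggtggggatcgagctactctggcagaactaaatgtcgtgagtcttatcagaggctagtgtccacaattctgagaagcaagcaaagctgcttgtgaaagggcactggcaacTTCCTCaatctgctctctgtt

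The Asprv1 window holds GAGGAA once, at base 253 counted from its 5′ end, and the Csf2rb2 window holds the reverse complement at bases 84 and 280. Searched on both strands, the 6 letters occur in 4 of the 7 windows (Asprv1, Csf3r, Csf2ra and Csf2rb2) and in 28.3% of all 32851 promoter windows. The letters TTGCNNAA, a form of the site of the C/EBP factors that drive granulocyte genes, occur in 1 of 7, Slpi, and in 10.8% of all windows. The TATA box letters TATAAA occur in 0 of 7 and in 13.6% of all. No matches overlapped in these windows. A match is a run of letters and not a measured site.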

How the data were processed

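The authors deposited a log2 value for each probe set on each array. Per the submitters' processing notes they used GCOS, whose version and steps are not stated there. That the scale is log2 was read from the range (2.12 to 14.98), and the array medians lay between 4.81 and 4.84, so no scaling was added. The 64 control probe sets were left out. The other 45037 were tested if their mean over the 6 arrays reached the median of those means (4.83). The genotype difference was estimated by limma 3.58.1 under R 4.3.3 (lmFit, then eBayes with an intensity trend, two-sided, without covariates), with Benjamini-Hochberg adjustment across the 22519 probe sets tested. Simulated data were used to test the script. As separate animals are not stated, p-values measure only array-to-array spread, which may be technical, and the number of arrays limits the precision (median standard error 0.128 in log2).

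The members, lists and alternatives were chosen with earlier results of these data known. Named were all 10 probe sets and, of the 5 most like Asprv1, the first 2. Technical sets were split at the largest gap (0.131, the next being 0.0501) in the mean of 18 hybridization control probe sets. Planned lists of other cytokine receptors, signalling genes, proteases, inhibitors and cell type markers could not be matched to probe sets and were not tested. Figures were drawn with matplotlib 3.10.9.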

Additional observations from a re-analysis of the deposited data

How the results depend on the processing

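The 10 differences between null and wild type were recomputed under 11 alternatives each, 110 values in all. Of these, 109 moved by less than the SD within groups, and the exception was Chil1 after quantile normalization (0.12). In groups of 3 arrays, leaving out an array or averaging a pair cannot move a difference by as much as that SD. The replicate block leaves every difference unchanged by design. The count of 109 was therefore mostly fixed in advance, and nothing is read from it. Every sign was kept except that of Csf2ra without wild-type replicate 1. The median over the 10 probe sets ranged from 0.054 to 0.20 with single arrays left out, and was 0.21 when the technical set was a block. Over all tested probe sets, 864 passed the threshold, 85 to 592 with single arrays left out, 119 with null replicates 1 and 2 averaged and 2466 when the technical set was a block. Of the 10 probe sets, 2 passed, 1 to 2 with single arrays left out, 1 with null replicates 1 and 2 averaged and 5 when the technical set was a block. Asprv1 passed in each of these fits, and Csf2rb2 was lost without null replicate 1 or 2, without wild-type replicate 1 or 2, and with the averaged arrays. Fewer arrays widen the error, and other causes were not tested. All calls of the 10 probe sets between the genotypes, here and below, come from the comparison in whose light the list was made. Nothing is read from them. For the effect of the technical set, 0 to 2 of the 10 probe sets passed with single arrays left out (Csf3r and Il1r2 without wild-type replicate 2), and 1 passed, Csf3r, with no filter on dim probe sets. Replicate numbers are shared between the groups, and deviations of arrays with the same number correlated at 0.211, −0.124 and 0.371. Replicates 1 and 3 each lie in the same technical set in both groups, and replicate 2 does not. These correlations therefore cannot decide whether the arrays are paired, and no pairing was assumed. With the replicate block, 857 probe sets passed, and 3 of the 10 (Csf2rb joined). Filter, normalization and offset alternatives, and the fit without the trend, kept the 2 calls. With values sorted within each array, the deposited arrays differed from null array 1 by at most 0.079 at any rank. Quantile normalization could therefore change little. The settings that choose probe sets per gene were not run for lack of gene names. The alternatives for the technical set effect and the count over the 10 probe sets were chosen after seeing the data.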
